A study of Mus musculus with 2 samples.

Results

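Genes of the cytosolic heat shock proteins, with the mitochondrial chaperonin gene *Hspd1*, were compared between cells of the superficial zone of joint cartilage (SFZ cells) and costal chondrocytes (CC). The genes were listed by name as *Hspa1a*, *Hspa1b*, *Hspa8*, *Hsp90aa1*, *Hsp90ab1*, *Hspb1*, *Cryab*, *Hspd1*, *Dnajb1* and *Hsph1*, and every probe set annotated to 1 of these 10 alone was taken. This gave 23 of the 34945 probe sets named for a single gene, for 9 of 18193 genes. No probe set was named here for *Hsp90ab1*, which encodes the constitutive cytosolic HSP90, so it has no value. SFZ cells came from femoral and tibial joints, and CC from ribs. Both were taken from ICR mice of postnatal day 4 and grown in DMEM with 10% FBS, and the labels name no treatment or altered gene for either. Labelled cRNA was made from 100 ng of total RNA for each array. How many mice each culture pooled was not stated in the sources used here. Rib and limb joint differ in body position as well as in cartilage zone, and these cannot be told apart.

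Heat shock proteins are chaperones that bind unfolded or damaged proteins and help them to fold or to be degraded. HSP70 proteins bind short hydrophobic stretches in an ATP cycle that is started by HSP40 (DNAJ) proteins and reset by nucleotide exchange factors such as HSP110. HSP90 acts later, on kinases, receptors and other nearly folded clients. Small heat shock proteins hold unfolding proteins without using ATP, and chaperonins such as HSP60 enclose their substrates. On heat or other proteotoxic stress, the transcription factor HSF1 binds heat shock elements, which are inverted repeats of the unit nGAAn, and raises transcription of many of these genes, while *Hspa8* and *Hsp90ab1* are also transcribed at high levels without stress. *Cryab* and several other small heat shock protein genes are characteristic of skeletal and cardiac muscle.

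Promoter sequences are shown because these genes are known together as targets of HSF1, and because they show how alike *Hspa1a* and *Hspa1b* are. RefSeq transcript starts of GRCm38.p6 were held for 6 of the 10 genes and not for *Hspa8*, *Hsp90aa1*, *Hsp90ab1* or *Cryab*. Each window ran from 250 bases before to 50 bases after the start. Heat shock element letters were searched on both strands as 2 inverted units, GAANNTTC or TTCNNGAA, and as 3 units, GAANNTTCNNGAA or TTCNNGAANNTTC, and each 3-unit match also holds overlapping 2-unit matches. The 150 bases before the start are given for *Hspa1a* (chr17:34972157-34972306, minus strand), for *Hspb1* (chr5:135887769-135887918, plus strand) and for the downstream of the 2 starts of *Hspd1* (chr1:55087933-55088082, minus strand). For *Hsph1*, bases 21 to 50 from the upstream of its 2 starts are given (chr5:149636287-149636316, minus strand). Each is written 5′ to 3′ on the strand of the gene, with 2-unit matches in capitals.
Hspa1a: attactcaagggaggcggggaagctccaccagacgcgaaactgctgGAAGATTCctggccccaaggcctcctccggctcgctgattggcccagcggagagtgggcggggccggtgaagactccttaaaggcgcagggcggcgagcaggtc
Hspb1: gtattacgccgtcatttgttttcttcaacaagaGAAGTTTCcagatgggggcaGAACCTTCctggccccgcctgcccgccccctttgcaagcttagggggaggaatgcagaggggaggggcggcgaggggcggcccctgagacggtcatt
Hspd1: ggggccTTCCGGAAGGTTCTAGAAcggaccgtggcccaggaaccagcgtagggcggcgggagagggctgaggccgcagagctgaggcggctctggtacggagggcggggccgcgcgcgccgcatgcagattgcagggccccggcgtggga
Hsph1: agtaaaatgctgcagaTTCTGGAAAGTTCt

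The 2-unit letters were found for 5 of the 6 genes, and the 3-unit letters for *Hspd1* and *Hsph1*, where a match at any start of a gene counted. *Hspd1* had matches only at the downstream of its 2 starts. Counted per start and not per gene, 15.1% of all 32851 starts held the 2-unit letters and 0.603% the 3-unit letters. *Hspa1a* held 1 match of 2 units and *Hspb1* held 2, and *Dnajb1* held none in the windows of its 2 starts. The *Hspa1b* window matched that of *Hspa1a* at 296 of 300 bases and held its 2-unit letters at the same distance from the start. In the stretch shown (for *Hspa1b*, chr17:34959239-34959388) they differed once, T149G, with the base of *Hspa1a* first and positions counted from the first base shown. The stretch shown for *Hspd1* also lies before the start of *Hspe1*, which encodes the partner chaperonin HSP10 and is transcribed the other way. A match describes these letters and not binding of HSF1 in these cells.

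Because each cell type has 1 array, no difference below has a replicate check, and neither tests nor p-values are given. Signals are MAS5 intensities on a linear scale, 1 per probe set, which is a group of oligonucleotides designed from the end of a transcript. A pair of signals below is always the SFZ signal followed by the CC signal, and each log2 ratio is SFZ over CC. Background, taken as the 95th percentile over probe sets of chemosensory receptors, was 28.2 for SFZ cells and 26.0 for CC. A probe set passed in a cell type where its signal there was over 100 and more than 2-fold that of the other. The study applied these thresholds toward SFZ cells, and the same rule toward CC is their mirror image, added here. As a technical error scale, log2 ratios of probe sets of the same gene had a pooled SD of 0.30 over 3627 genes with 2 or more probe sets over 100. The arrays differed in level, since the median log2 ratio of all named probe sets above background was -0.20, against 0.11 with medians made equal and 0.04 with quantile normalization. Heat shock values are to be read against this shift. Signals of *Prg4*, the lubricin gene of SFZ cells, were 323 and 73.6, those of *Sox9* 902 and 1150, and those of *Actb* 7578 and 9338. Of 6 superficial zone markers above background, *Prg4* was the only one that passed in SFZ cells. *Vcam1* at 35.7 and 354 and *Thbs4* at 108 and 388 passed in CC, and *Erg* and *Clu* passed in neither direction. *Gdf5*, at 93.1 and 74.2, was under the minimum of 100 on both arrays and so could not pass. The median log2 ratio of the 6, *Prg4* included, was -0.27. All 17 chondrocyte markers were above background in SFZ cells, and all except *Chad* were so in CC. Of the 17, 4 passed in SFZ cells and 0 in CC, and 7 passed in SFZ cells with medians made equal. Their median log2 ratio was 0.33 as deposited and 0.64 with medians made equal, and their summed signals were 105008 and 80656. Of 8986 genes with a signal over 100, 2.38% passed in SFZ cells.

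Of the heat shock probe sets, 4 passed in CC and 0 in SFZ cells. The 4 belong to the small heat shock protein genes *Hspb1* and *Cryab*. Among the 14592 named probe sets with a signal over 100 on either array, 10.4% passed in CC and 2.27% in SFZ cells, and 18 of the 23 heat shock probe sets were among those 14592. A further 16 heat shock probe sets were above background and passed in neither direction, and 3 were under background on both arrays. Genes of HSP70, HSP90, HSP110, HSP40 and HSP60 were all among the 16. Over the 20 probe sets above background the median log2 ratio was -0.34, against -0.20 over all named probe sets. With medians made equal it was -0.030 against 0.11, and with quantile normalization -0.23 against 0.04. Of the 20, 17 had a ratio under 1 as deposited. With medians made equal, *Hsp90aa1*, *Hspd1* and *Dnajb1* had ratios over 1 on their brightest probe sets, so this count depends on the scaling. For comparison, among the 14592 probe sets 60.8% had a deposited ratio of 0.944 or less and 71.3% of 1.03 or less. That set leaves out dim probe sets such as that of *Hspa1a*, which is among the 20.

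**Figure D1:**
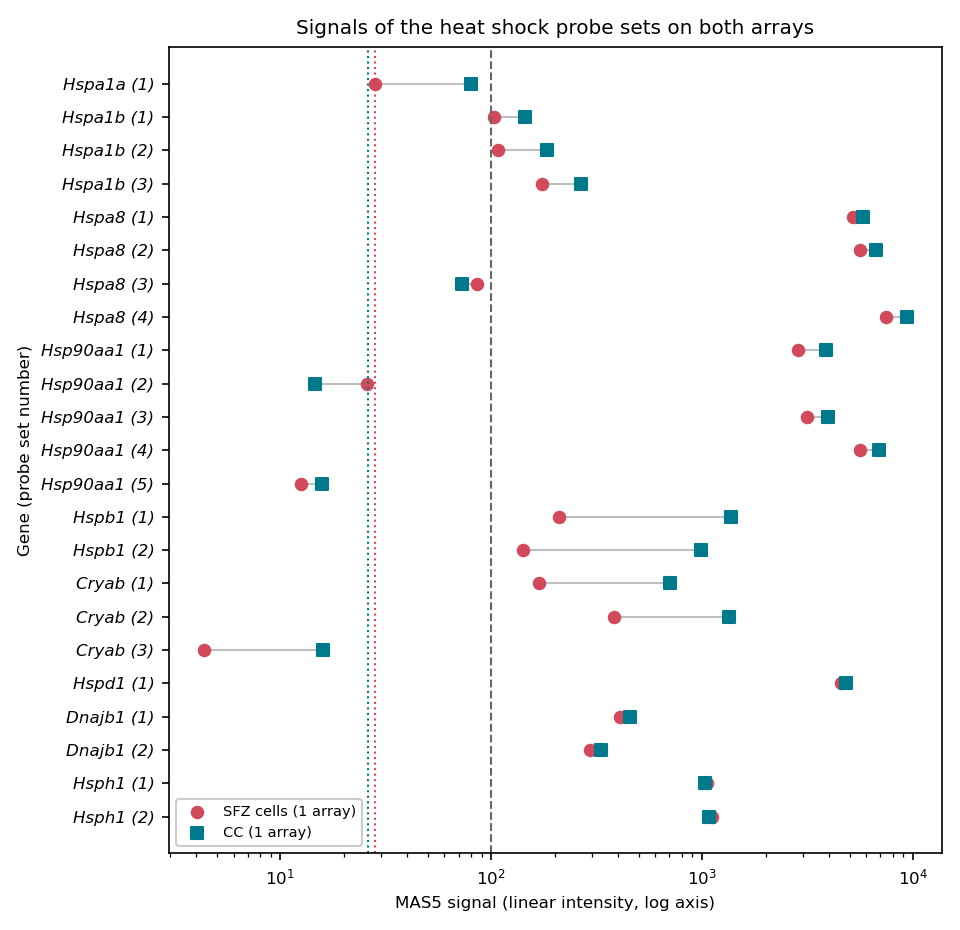
MAS5 signals of the 23 heat shock probe sets on a log axis, with 1 SFZ array (circles) and 1 CC array (squares), the probe sets of a gene being numbered in order of their identifiers. Dotted lines mark background, 28.2 for SFZ cells and 26.0 for CC, and the dashed line the minimum signal of 100. Among probe sets over 100 the gaps of *Hspb1* and *Cryab* are the widest, and the points of *Hspd1*, *Dnajb1* and *Hsph1* nearly overlap.

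*Hspb1* encodes HSP27 (HSP25 in mice), a small heat shock protein that also protects actin filaments. One of its probe sets had signals of 210 and 1366, and the other of 141 and 987. CC was thus higher on each, by 6.50-fold and 6.99-fold, and all 4 signals were above background. The log2 ratios of -2.70 and -2.80 differed from each other by less than the spread between probe sets of a gene. Only 2.23% and 2.10% of the 14592 probe sets had a ratio as low. On the brighter probe set the log2 ratio was -2.39 with medians made equal and -2.47 with quantile normalization.

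*Cryab* encodes αB-crystallin, a small heat shock protein of lens and muscle. Its signals were 383 and 1342 on 1 probe set and 169 and 705 on another. CC was again higher on each, by 3.50-fold and 4.18-fold, with log2 ratios of -1.81 and -2.06. A further probe set, with signals of 4.35 and 15.9, was under background on both arrays and gives no ratio. The probe sets of *Hspb1* and *Cryab* that passed did so under both scalings as well. All 4 are of the _a_at kind, made for several transcripts of a gene, or the _x_at kind, in which some probes may bind other sequences. When such probe sets were left out 0 heat shock probe sets passed, because *Hspb1* has no other and the remaining one of *Cryab* is under background.

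Other small heat shock protein genes were read beside them. Of 7 genes 5 were above background, and 4 of these passed in CC and 0 in SFZ cells, whereas of 8986 genes with a signal over 100, 11.0% passed in CC and 2.38% in SFZ cells. *Hspb2* lies next to *Cryab* on chromosome 9, with 0 coding genes between them, and its signals of 35.6 and 365 differed by 10.3-fold. *Hspb3*, whose product forms a complex with that of *Hspb2* in muscle, had signals of 4.21 and 113 and was at least 4.02-fold higher in CC. *Hspb7*, a gene of heart and skeletal muscle, had signals of 17.7 and 123 and was at least 4.37-fold higher in CC. The SFZ signals of *Hspb3* and *Hspb7* were under background. *Hspb8*, whose product works with BAG3 in autophagy of damaged proteins, had signals of 313 and 666, and its log2 ratio of -1.09 became -0.78 with medians made equal and -0.87 with quantile normalization, which no longer passed. *Hspb6*, encoding HSP20, was the exception at 382 and 324, a log2 ratio of 0.24. The lens gene *Cryaa* and *Hspb9* were under background on both arrays.

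Muscle markers were high on the same array as these genes. Among the 8986 genes with a signal over 100, 11.0% passed in CC. Of 18 skeletal muscle markers 16 were above background and all 16 passed in CC, with a median log2 ratio of -5.60. Signals summed over all 18 were 381 and 38382. *Actc1*, an actin gene of embryonic and cardiac muscle, was at 28.7 and 8228, while *Myf5* and *Pax7*, which mark muscle precursors, were under background on both arrays. Markers of other cells were higher in CC too. Among those above background, 4 of 4 adipocyte markers passed in CC, as did 4 of 7 leukocyte markers (2 under either scaling) and 5 of 10 fibroblast markers. Summed over all measured markers of a list, signals were 1016 and 10982 for adipocytes, 477 and 2135 for leukocytes and 17260 and 28618 for fibroblasts. Their part in the values of *Hspb1*, *Cryab* and the other small heat shock protein genes was not tested. In bulk RNA a different share of cells of a type cannot be told apart from a different RNA level per cell.

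The HSP70 genes comprise inducible and constitutive ones. *Hspa1a* and *Hspa1b* are neighbours on chromosome 17 that encode nearly the same inducible HSP70, and a signal of either may include transcripts of the other. *Hspa1b* had signals of 103 and 145, of 108 and 183, and of 174 and 266 on its 3 probe sets. CC was higher on each, by 1.40-fold to 1.70-fold, which is short of 2-fold. *Hspa1a* had signals of 28.0 and 79.9, the former at background, so that it was at least 2.84-fold higher in CC, where its signal was under the minimum of 100. With 64 added to both signals the log2 ratio of *Hspa1a* shrank from -1.52 to -0.65. *Hspa1l*, the testis gene next to *Hspa1a*, was under background on both arrays.

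*Hspa8* encodes HSC70, the constitutive HSP70. Its 3 bright probe sets had signals of 5190 and 5805, of 5599 and 6709, and of 7440 and 9353. The SFZ/CC ratios were 0.894, 0.835 and 0.795, all under 1, whereas a dim probe set at 85.2 and 72.3 had a ratio of 1.18. On the brightest probe set the log2 ratio of -0.33 became -0.02 with medians made equal and -0.28 with quantile normalization.

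*Hsph1*, encoding HSP110, which exchanges the nucleotide of HSP70, had signals of 1058 and 1029 on 1 probe set and 1109 and 1077 on the other. Both ratios were 1.03. *Dnajb1*, encoding the stress-inducible HSP40 that starts the cycle of HSP70, had signals of 408 and 455 and of 295 and 332. Its ratios were 0.896 and 0.888, and the log2 ratio on the brighter probe set changed sign with scaling, from -0.16 to 0.15 with medians made equal and to 0.07 with quantile normalization.

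Few other genes of the HSP70 machinery passed. Among the 8986 genes with a signal over 100, 11.0% passed in CC and 2.38% in SFZ cells. Of 7 further cytosolic HSP70 and HSP110 genes 5 were above background and 0 passed. *Hspa2*, a gene best known from spermatogenesis, was at 590 and 406, and *Hspa4*, which also encodes an HSP110 protein, at 1505 and 1811. Of 13 further cytosolic HSP40 genes only *Dnajb4* passed, at 299 and 620. On this probe set, its brightest, it did not pass under either scaling. Another probe set of *Dnajb4*, at 82.3 and 267 with a log2 ratio of -1.70, also passed in CC as deposited. *Dnaja1*, a main HSP40 partner of HSC70, was at 1183 and 2089, and *Dnajc9*, a histone chaperone, at 256 and 503, both lower in SFZ cells but short of 2-fold. Among 9 genes of HSP70 cochaperones 0 passed, with a median log2 ratio of -0.40 that became -0.09 with medians made equal. The BAG domain gene *Bag2* was at 211 and 299, *Bag1* at 1816 and 1905, and *St13*, whose product stabilizes HSP70 with its substrate, at 1674 and 2346.

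*Hsp90aa1* encodes the inducible cytosolic HSP90. Its 3 bright probe sets had signals of 2857 and 3866, of 3127 and 3974, and of 5629 and 6868. The ratios were 0.739, 0.787 and 0.820, all under 1 and short of 2-fold. Its other probe sets, at 25.6 and 14.6 and at 12.6 and 15.8, were under background on both arrays. On the brightest probe set the log2 ratio of -0.29 became 0.02 with medians made equal and -0.25 with quantile normalization.

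Of 16 HSP90 cochaperone genes 3 passed in CC and 0 in SFZ cells. Among the 8986 genes with a signal over 100, 11.0% passed in CC and 2.38% in SFZ cells. *Unc45b*, encoding a cochaperone that folds muscle myosin, was at 6.15, under background, and 114, and was at least 4.04-fold higher in CC. *Ahsa2*, a paralog of an activator of the HSP90 ATPase, was at 118 and 288. *Fkbp5*, an immunophilin gene induced by glucocorticoids, was at 189 and 392. With medians made equal neither *Ahsa2* nor *Fkbp5* passed. *Unc45a*, the general form of *Unc45b*, was at 201 and 180, and *Stip1*, whose product bridges HSP70 and HSP90, at 1228 and 1163, both slightly higher in SFZ cells.

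*Hspd1*, encoding the mitochondrial chaperonin HSP60, was measured by 1 probe set with signals of 4542 and 4813, a ratio of 0.944. *Hspe1*, its neighbour on chromosome 1, was at 4356 and 4556, a ratio of 0.956. The log2 ratios of *Hspd1* and *Hspe1* were -0.08 and -0.06 as deposited and 0.22 and 0.24 with medians made equal, a scaling that adds the same amount to both. With quantile normalization they were -0.02 and 0.02. Of 10 other mitochondrial chaperone and protease genes, *Hspe1* included, 0 passed, and the median log2 ratio was -0.01. The nucleotide exchange factor gene *Grpel2* was at 436 and 306, *Dnaja3* at 674 and 488, and the protease gene *Lonp1* at 1421 and 1048. These were the genes of that list farthest toward SFZ cells. The cytosolic chaperonin TRiC and its partner prefoldin had 0 of 14 genes passing and a median of -0.15, with *Cct3* at 3416 and 4336 and *Pfdn1* at 1295 and 1096.

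**Figure D2:**
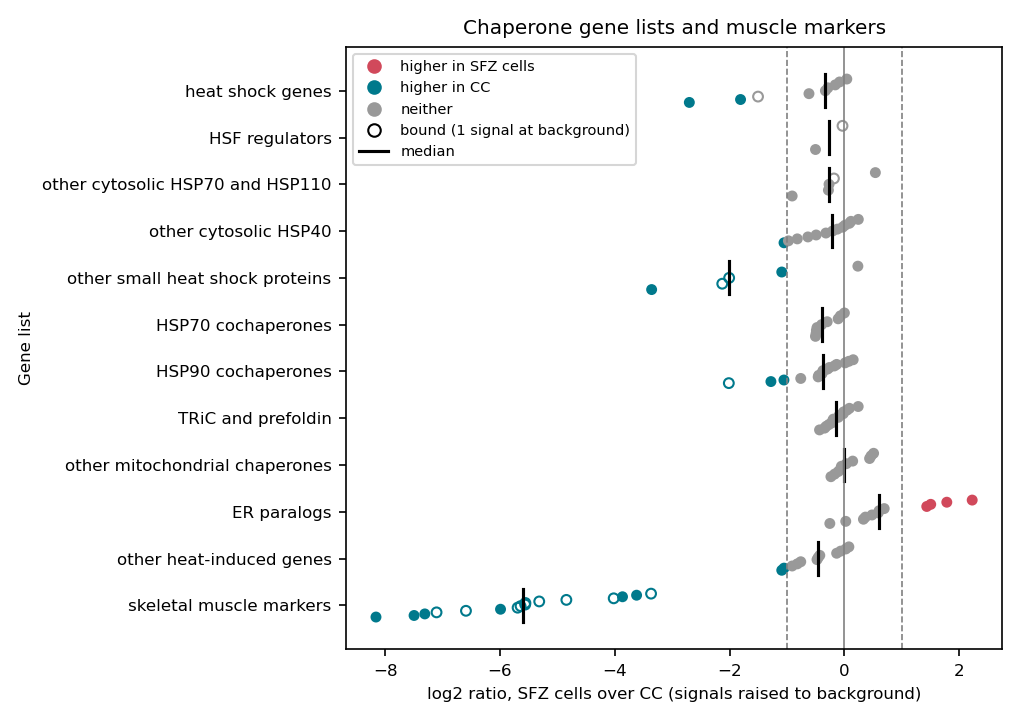
SFZ/CC log2 ratios, 1 array each, for heat shock genes, other chaperone lists and skeletal muscle markers, with signals raised to background. Points are genes above background on either array, open points being bounds, bars are list medians, and dashed lines stand at a 2-fold ratio. The medians are -0.33 for the heat shock genes, -2.01 for other small heat shock protein genes, 0.60 for genes of the endoplasmic reticulum (ER) and -5.60 for muscle markers.

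Regulators and other targets of the heat shock response were read next. *Hsbp1*, encoding a small protein that binds HSF1, was at 1789 and 2540. No probe set was named here for *Hsf1* alone, *Hsf2* was at 26.8 and 28.8, close to background, and *Hsf4* and *Hsf5* were under background on both arrays. Of 12 other heat-induced genes 2 passed in CC, *Hspb8* and *Dnajb4*, which on their brightest probe sets did not pass under either scaling. As deposited, 11.0% of the 8986 genes with a signal over 100 passed in CC. The median log2 ratio of the 12 was -0.47 as deposited, against -0.18 over 12477 genes above background read the same way. With medians made equal it was -0.16, against 0.11 over all named probe sets above background, a reference not read per gene. *Stip1* and *Serpinh1* had ratios over 1 and the other 10 under 1. *Serpinh1*, encoding the collagen chaperone HSP47 of the ER, was at 9643 and 9481.

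Genes of ER chaperones and their partners, most of them from the same families, were read beside the cytosolic ones. Of 12 ER genes 4 passed in SFZ cells and 0 in CC, with a median log2 ratio of 0.60 as deposited and 0.91 with medians made equal. Among the 8986 genes with a signal over 100, 2.38% passed in SFZ cells and 11.0% in CC. Among HSP70 genes *Hspa5* (BiP) was at 11157 and 7411, a log2 ratio of 0.59, against -0.33 for *Hspa8* and 0.15 for the mitochondrial *Hspa9*. Among HSP90 genes *Hsp90b1* (GRP94) was at 10788 and 6666, a log2 ratio of 0.69, against -0.29 for *Hsp90aa1* and -0.23 for the mitochondrial *Trap1*. The ER relative of HSP110, *Hyou1*, was at 3446 and 1000, a log2 ratio of 1.79, against 0.04 for *Hsph1*. Among HSP40 genes *Dnajb11* was at 1972 and 729, a log2 ratio of 1.44, against -0.16 for *Dnajb1* and 0.47 for the mitochondrial *Dnaja3*. Other ER genes of the HSP40 family did not all lie on that side, with *Dnajc3* at 4396 and 939 and *Dnajb9* at 4762 and 1678, but *Dnajc1* at 599 and 476 and *Dnajc10* at 1066 and 1270. The log2 ratio of *Dnajc10*, -0.25, was below that of *Dnajb1*. The cytosolic HSP70 gene *Hspa2* had a log2 ratio of 0.54, close to that of *Hspa5*. Of the 5 further cytosolic HSP70 and HSP110 genes above background, 4 lay below 0.
In the pairs of *Hspa5*, *Hsp90b1*, *Hyou1* and *Dnajb11* with their cytosolic counterparts, the log2 ratio of the ER gene exceeded that of the cytosolic gene by 0.92 for HSP70, 0.98 for HSP90, 1.74 for HSP110 and 1.59 for HSP40. Making medians equal leaves these differences as they are by construction, since it shifts all genes alike. For scale, single log2 ratios across all named probe sets had an SD of 0.78 at mean signals from 1000 to 10000. From 100 to 1000 the SD was 0.89. A difference between the log2 ratios of 2 unrelated genes spreads more widely than either SD. The pairs were picked after their values were seen, ER chaperones were known from earlier results to be high on this SFZ array, and with 1 array per cell type the difference between compartments was not tested.

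**Figure D3:**
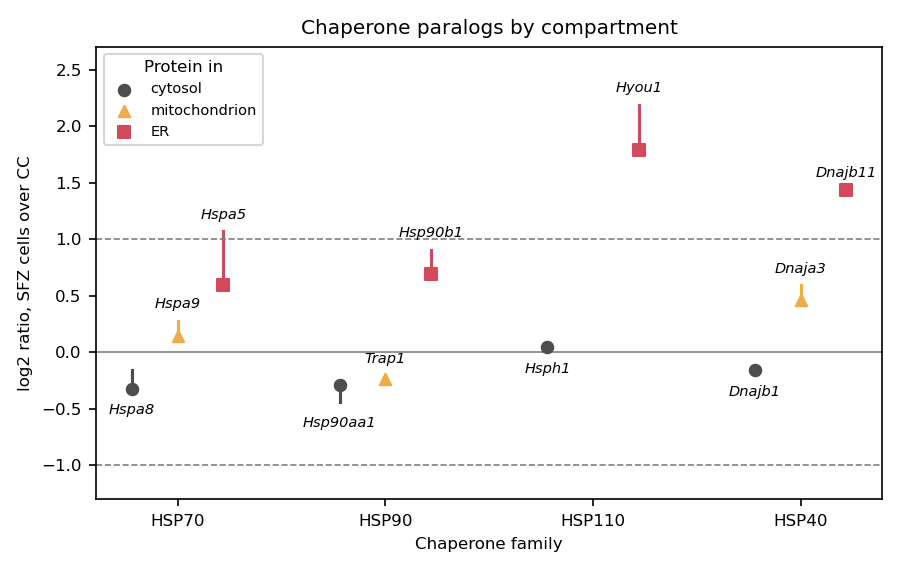
SFZ/CC log2 ratios, 1 array each, of chaperone paralogs whose proteins reside in the cytosol (circles), mitochondrion (triangles) or ER (squares). Points are the probe set of highest signal, vertical lines span all probe sets of a gene with a signal over 100, and dashed lines stand at a 2-fold ratio. Each ER gene chosen for the plot lies above the cytosolic gene chosen beside it, *Hyou1* being highest at 1.79. Not plotted are *Dnajc10*, an ER gene of the HSP40 family at -0.25, and *Hspa2*, a cytosolic HSP70 gene at 0.54.

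Immediate early and cell cycle genes also differed between the arrays. As deposited, 11.0% of the 8986 genes with a signal over 100 passed in CC. Of 7 immediate early genes above background 5 passed in CC, and 2 did so under either scaling. Signals summed over all 8 measured were 1901 and 5986 as deposited. Cell cycle genes passed in CC for 9 of 11 as deposited and for 7 under either scaling, with summed signals of 3745 and 8358 as deposited. Their part in the values of the heat shock genes was not tested.

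**Figure D4:**
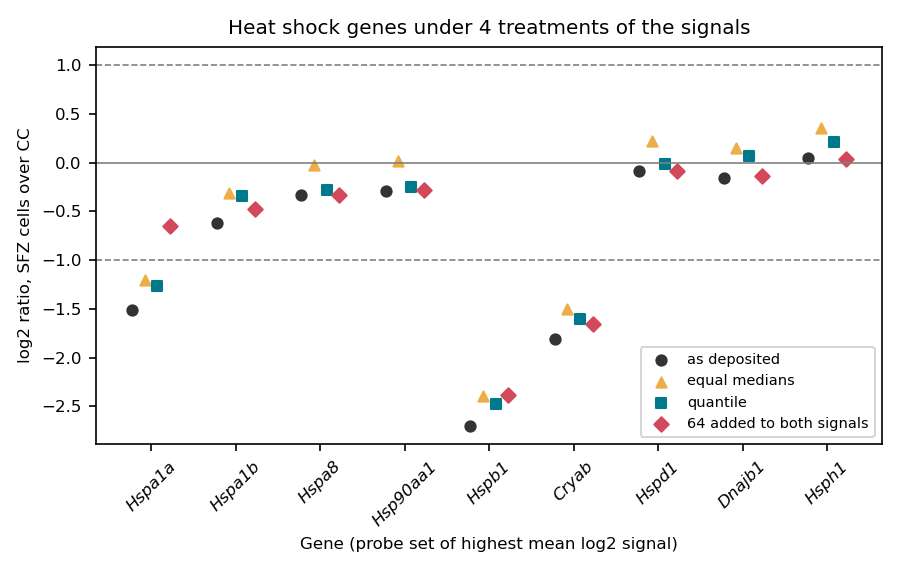
SFZ/CC log2 ratios of the 9 heat shock genes, 1 array each, on the probe set of highest mean log2 signal, as deposited, with medians made equal, with quantile normalization and with 64 added to each signal. Dashed lines stand at a 2-fold ratio. *Hspb1* and *Cryab* lie under -1 in each of the 4, *Hspa1a* lies at -0.65 with 64 added, and *Hsp90aa1*, *Hspd1* and *Dnajb1* lie on either side of 0.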

How the data were processed

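RNA of both cell types was hybridized to Affymetrix GeneChip arrays of the mouse genome, 1 array for SFZ cells and 1 for CC. Values are the signal intensities that the authors deposited, on a linear scale and 1 per probe set. The submitters' processing notes give MAS5, whose version and scaling target were not given in the sources used here. No further scaling was applied.

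After 64 control probe sets were removed, 45037 remained. The platform annotation gave 1 gene symbol for 34945 of them, several for 932 and none for 9160, and only the first kind was used. Of these, 34741 matched RefSeq of GRCm38.p6 by Entrez identifier, with 0 changed symbols. Background was the 95th percentile over 86 chemosensory receptor probe sets of each array. In gene lists each gene was read on its probe set of highest mean log2 signal, with signals raised to background for medians.

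The rule for named genes took all members, *Hspa5*, *Hsp90b1*, *Hspe1*, *Hspa9* and the control genes, up to 3 genes of highest and 3 of lowest ratio from each chaperone list, and up to 3 from each marker list. *Dnajb11*, genes under background and those of the closing observations were named after their values were seen. The members and the lists were chosen with earlier results of these data known. Counting was tested on simulated data. Alternatives covered the scaling, the treatment of low signals, the thresholds and the choice of probe sets, and those for lists and for genes outside the members were added after seeing the data. RT-qPCR and reporter assays were not analysed here. The software was Python 3.11.15 with numpy 2.4.6, pandas 2.3.3 and matplotlib 3.10.9.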

Additional observations from a re-analysis of the deposited data

How the results depend on the processing

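The count of 0 heat shock probe sets higher in SFZ cells was the same under the 8 alternatives run for it. The 4 probe sets higher in CC stayed 4 with medians made equal, with quantile normalization, with signals raised to background, with 64 added, at a ratio over 3 and at a signal over 200, and were 6 at a ratio over 1.5. They became 0 without the _s_at, _x_at and _a_at probe sets, since the remaining probe set of *Cryab* is under background and *Hspb1* has no other. The median log2 ratio of heat shock probe sets, -0.34 as deposited, moved to -0.030 with medians made equal, because that scaling raises every log2 ratio alike. Counts of the other lists were recomputed by choices added after seeing the data. With medians made equal, genes passing in CC went from 3 to 1 for HSP90 cochaperones, from 1 to 0 for HSP40, from 2 to 0 for heat-induced genes, from 4 to 2 for leukocyte markers and from 5 to 2 for immediate early genes, and quantile normalization gave the same except 2 for HSP90 cochaperones. With 64 added they were 1, 0, 0 and 2 in the first 4 of these lists. At a ratio over 3 they were 1, 0, 0, 2 and 2 in the same order and 5 of 9 for cell cycle genes, and ER genes passing in SFZ cells went from 4 to 2. At a ratio over 1.5, HSP40 had 4, heat-induced genes 5, further HSP70 and HSP110 genes 1 against 0, and ER genes 7. At a signal over 200, small heat shock protein genes went from 4 to 2 and leukocyte markers to 2. With the median over probe sets, cell cycle genes had 5 and heat-induced genes 1, and without _s_at, _x_at and _a_at probe sets adipocyte markers had 2 and further HSP70 and HSP110 genes 1. No paired analysis was possible because each cell type has 1 array, and for the same reason no array could be left out and no error between cultures can be given. For dim genes such as *Hspa1a*, whose SFZ signal was at background, only a bound can be given.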

Other observations

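A few chaperone genes were read differently by their own probe sets. *Hspa14*, an HSP70 relative bound to ribosomes, had SFZ and CC signals of 342 and 415 on 1 probe set and of 257 and 192 on another, with log2 ratios of -0.28 and 0.42. *Hspa5* passed in SFZ cells on a probe set at 10031 and 4784, a ratio of 2.10, but not on its brightest, where the ratio was 1.51. *Hspa4l*, a further HSP110 gene, passed in CC on a probe set at 37.3 and 102 and not on that at 72.9 and 137. These genes were picked after their values were seen, and the cause of the gaps was not tested.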
